A study of Danio rerio with 19 samples.

Results

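The myogenic regulatory factors *myod1* (ENSDARG00000030110), *myog* (ENSDARG00000009438) and *myf5* (ENSDARG00000007277) were followed through bulk RNAseq of the zebrafish tail fin. They were chosen by gene identity, not by their level, and are 3 of the 32520 genes in the count table. All tissue came from WIK strain embryos at 4 dpf (days post-fertilisation), cut at the start of the caudal pigment gap. The 19 libraries formed 6 groups, namely injured *yap1* Crispants (n = 4), uninjured *yap1* Crispants (n = 3), injured *wwtr1* Crispants (n = 3), uninjured *wwtr1* Crispants (n = 3), injured WT (n = 3) and uninjured WT (n = 3). *wwtr1* encodes Taz, and the labels call these groups Yap and Taz Crispants. Injured fish had their tail fin cut by the severe paradigm when 3 dpf old and recovered for 24 h, while uninjured fish of the same age were cut only at collection. Crispants are F0 fish injected with Cas9 and guide RNAs, so they are mosaic, and each library pooled the tail fins of many embryos. Whether the sequenced WT fish had been injected is not given in the sources used here.

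Myf5 and MyoD are basic helix-loop-helix transcription factors that commit mesodermal cells to the skeletal muscle lineage, in overlapping roles. Myogenin acts after them and drives committed myoblasts to withdraw from the cell cycle and differentiate into fibres. In the zebrafish larva, *myod1* and *myog* are known from the somites and from differentiating fibres, and *myf5* from muscle precursors. In bulk tissue, fewer cells of a type and less RNA per cell cannot be told apart. In the RefSeq annotation of another assembly (GRCz12tu), the nearest protein-coding neighbours of *myf5* were its paralogue *myf6* and *lin7a*, and those of *myod1* were *tnnt3a* and *zgc:172145*. The neighbours of *myog* were *LOC110439107* and *si:ch211-86h15.1*, and none of these neighbours overlapped the 3 genes.

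Library totals lay between 28081131 and 80837847 counts (median 44618000), so that 3 counts, taken here as the detection floor of a library, corresponded to 0.0367 to 0.0966 CPM (counts relative to library size, scaled by TMM, the trimmed mean of M values). The targeted gene *yap1* was measured at 136 to 276 CPM in the libraries of *yap1* Crispants, against 134 to 289 CPM in WT, and *wwtr1* at 0.444 to 1.24 CPM in *wwtr1* Crispants, against 0.523 to 1.19 CPM in WT. RNA level is therefore no check of these labels, as guide-induced lesions need not alter it. The labelled tissue was borne out by its markers, since *krt4* of the epidermis reached 40629 to 121575 CPM and the actinotrichia gene *and1* of the fin fold 16768 to 82745 CPM. Of the 13 gene IDs of the heart list 6 passed the filter. *myl7* and *nppa* were each at 0 in 18 of 19 libraries, while the 2 IDs that the symbol table names *MYH6* and that passed (ENSDARG00000079564 and ENSDARG00000114031) were found in every library, at 2.12 to 167 CPM and 0.105 to 4.68 CPM, as was *TNNT2* (ENSDARG00000100694), at 0.105 to 5.67 CPM.

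All 3 factors were scarce. *myod1* summed to 865 counts over the 19 libraries (1 to 229 per library) and *myog* to 1338 counts (2 to 342 per library). *myf5* summed to 144 counts, with at most 19 in a library and 4 libraries at 0. All 3 passed the filter on low counts, which kept 20979 genes. *myf5* exceeded the filter level in only 5 libraries, spread over 5 groups, against 16 libraries for *myod1* and 17 for *myog*.

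*myf5*, the determination factor of muscle precursors, had 12, 1, 0 and 14 counts in the injured *yap1* libraries (0.147, 0.0211, 0 and 0.451 CPM), against 8, 13 and 14 counts in the uninjured ones (0.153, 0.257 and 0.410 CPM). In *wwtr1* Crispants it had 8, 4 and 3 counts after injury (0.238, 0.0889 and 0.0573 CPM), against 9, 2 and 15 counts without (0.145, 0.0495 and 0.372 CPM). In WT it had 0, 0 and 0 counts after injury, against 6, 19 and 16 counts without (0.155, 0.333 and 0.210 CPM). Only the WT groups stood clear of each other, while injured and uninjured libraries overlapped in both Crispants. The share of all genes whose groups stand clear was not computed, so overlap is given here and below as a description. Ordered by mean, the groups ran from uninjured *yap1* Crispants (0.273 ± 0.129 CPM, SD, n = 3) through uninjured WT (0.232 ± 0.0911), uninjured *wwtr1* Crispants (0.189 ± 0.166), injured *yap1* Crispants (0.155 ± 0.208, n = 4) and injured *wwtr1* Crispants (0.128 ± 0.0963) to injured WT (0). Neighbours in this order overlapped, except injured *wwtr1* Crispants and injured WT.

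*myod1*, the other determination factor, had 229, 45, 52 and 3 counts in the injured *yap1* libraries (2.81, 0.951, 1.33 and 0.0966 CPM), against 33, 16 and 16 counts in the uninjured ones (0.633, 0.316 and 0.468 CPM). In *wwtr1* Crispants it had 44, 21 and 15 counts after injury (1.31, 0.467 and 0.287 CPM), against 62, 33 and 65 counts without (1.00, 0.817 and 1.61 CPM). In WT it had 72, 1 and 6 counts after injury (1.27, 0.0132 and 0.149 CPM), against 78, 37 and 37 counts without (2.01, 0.648 and 0.485 CPM). Injured and uninjured libraries overlapped in every genotype, and the injured groups were the more scattered, with a highest library 29.1 times the lowest in *yap1* Crispants and 96.1 times in WT. Group means followed the order injured *yap1* Crispants (1.296 ± 1.13 CPM, n = 4), uninjured *wwtr1* Crispants (1.14 ± 0.416, n = 3), uninjured WT (1.05 ± 0.838), injured *wwtr1* Crispants (0.687 ± 0.545), injured WT (0.476 ± 0.687) and uninjured *yap1* Crispants (0.472 ± 0.158). Each group overlapped the next in this order.

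*myog*, the differentiation factor, had 342, 77, 45 and 12 counts in the injured *yap1* libraries (4.19, 1.63, 1.15 and 0.386 CPM), against 58, 37 and 34 counts in the uninjured ones (1.11, 0.731 and 0.995 CPM). In *wwtr1* Crispants it had 91, 71 and 40 counts after injury (2.70, 1.58 and 0.764 CPM), against 42, 69 and 86 counts without (0.677, 1.71 and 2.13 CPM). In WT it had 119, 7 and 2 counts after injury (2.09, 0.0923 and 0.0498 CPM), against 108, 70 and 28 counts without (2.79, 1.23 and 0.367 CPM). In each of the 3 injured groups, replicate 1 was the highest library for *myog* and for *myod1*. Replicate 4 of the injured *yap1* Crispants was the lowest of its group for *myod1* and *myog* and the highest for *myf5*. By mean, *myog* ran from injured *yap1* Crispants (1.84 ± 1.65 CPM, n = 4) through injured *wwtr1* Crispants (1.68 ± 0.974, n = 3), uninjured *wwtr1* Crispants (1.51 ± 0.748), uninjured WT (1.46 ± 1.23) and uninjured *yap1* Crispants (0.946 ± 0.195) to injured WT (0.745 ± 1.17), with overlap between all neighbours.

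**Figure D1:**
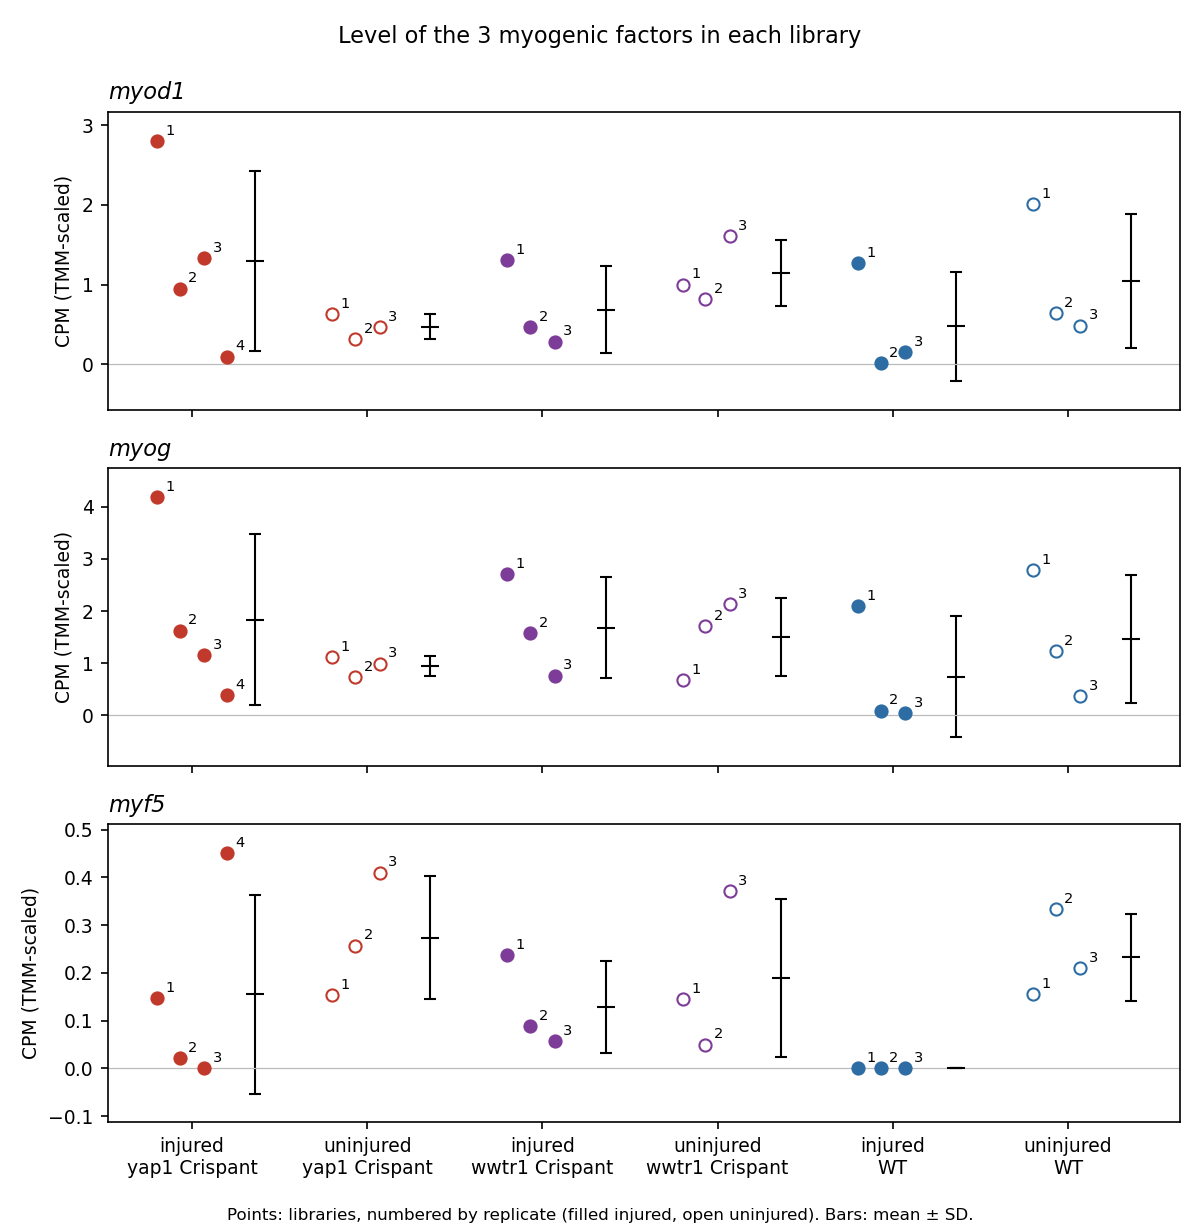
CPM of *myod1*, *myog* and *myf5* (TMM-scaled, linear axes, one panel per gene) in each of the 19 libraries, numbered by replicate, with injured libraries filled and uninjured ones open; bars give the group mean ± SD. Replicate 1 is the highest injured library for *myod1* and *myog* in each genotype, and *myf5* is at 0 in all 3 injured WT libraries.

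The first question was whether severe injury altered the 3 factors within each genotype. A gene was called a DEG (differentially expressed gene) at an adjusted p under 0.05 (edgeR quasi-likelihood test, Benjamini-Hochberg over all genes tested) with a log2 fold change over 1 or under -1. Of the 9 tests of injury only *myf5* in WT passed. It fell to 0 counts in all 3 injured WT libraries, whose floor of 3 counts per library averaged 0.0557 CPM, against 0.232 ± 0.0911 CPM in uninjured WT (SD, n = 3). Set against that floor it was at least 4.18-fold lower in injured WT (edgeR adjusted p = 0.0124, DESeq2 adjusted p = 0.00129), and it was lower in 3 of 3 injured libraries than in any uninjured one. In this comparison 16.0% of all genes tested were called, 8.24% higher and 7.79% lower. The *myf5* call was kept when any of the 6 WT libraries was left out, at adjusted p values between 0.0204 and 0.0459 from edgeR, with 41 counts in the uninjured group as its whole basis.

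*myod1* and *myog* were not called in WT. The log2 fold change of injured over uninjured WT was -1.12 for *myod1* (SE 1.05, 95% interval -3.33 to 1.09, edgeR adjusted p = 0.481) and -0.95 for *myog* (SE 1.02, 95% interval -3.09 to 1.19, edgeR adjusted p = 0.545). Replicate 1 of injured WT decided both values. Without it, the log2 fold change was -3.81 for *myod1* (edgeR adjusted p = 0.0368) and -4.24 for *myog* (edgeR adjusted p = 0.0116), and both became DEGs. Without replicate 1 of uninjured WT, in contrast, they were -0.25 and -0.08. In replicate 1 of injured WT the 29 genes of the thin and thick filaments of skeletal muscle summed to 796 CPM, against 216 and 194 CPM in the other injured WT libraries and 629 to 1526 CPM in uninjured WT. The notochord markers of the same injured libraries summed to 1624, 530 and 463 CPM, against 3597 to 7970 CPM in uninjured WT. The part of notochord tissue in the *myod1* and *myog* values was not tested, and *myf5* was at 0 in all 3 injured libraries alike.

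**Figure D2:**
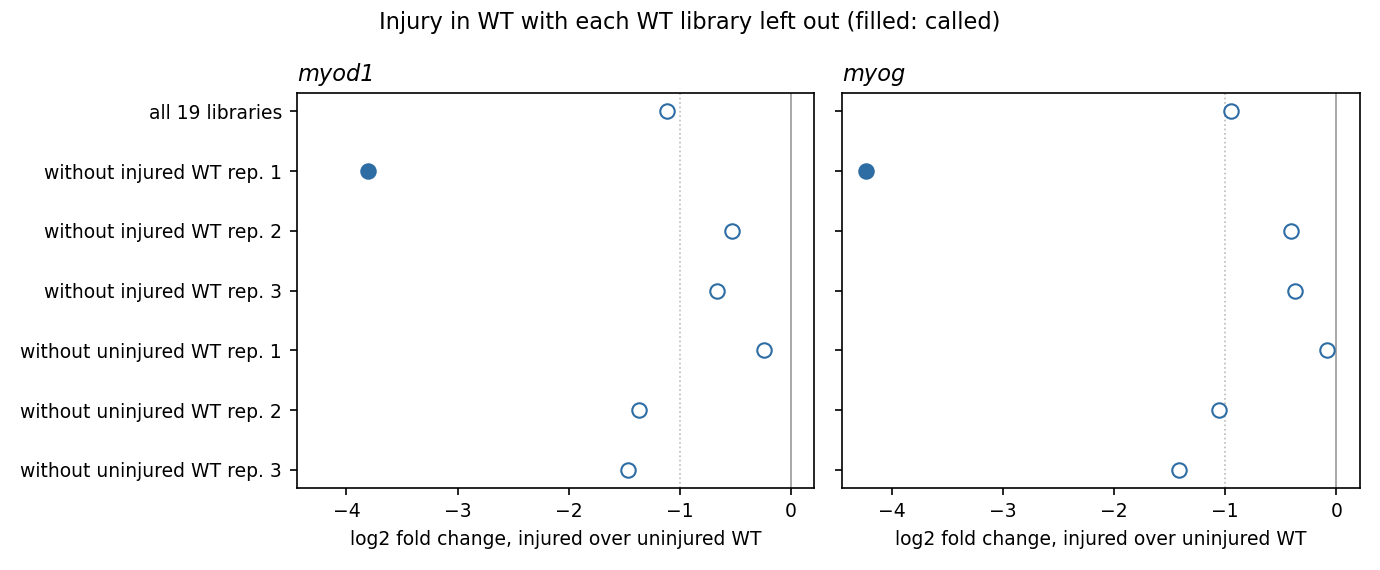
Log2 fold change of injured over uninjured WT for *myod1* (left) and *myog* (right), with all 19 libraries and with each of the 6 WT libraries left out; filled points passed both thresholds, and the dotted line marks a log2 fold change of -1. Both genes were called only without replicate 1 of injured WT, at -3.81 for *myod1* and -4.24 for *myog*.

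In *yap1* Crispants the fitted values for *myod1* and *myog* were positive, and neither passed. The log2 fold change of injured over uninjured *yap1* Crispants was 1.47 for *myod1* (SE 1.01, 95% interval -0.66 to 3.60, edgeR adjusted p = 0.356), 0.97 for *myog* (SE 0.96, 95% interval -1.05 to 3.00, adjusted p = 0.540 by edgeR) and -0.85 for *myf5* (SE 1.05, 95% interval -3.08 to 1.39, adjusted p = 0.639 by edgeR). With a library left out, *myod1* in *yap1* Crispants lay between 0.75 and 1.85 and *myog* between 0.17 and 1.305, the lowest without replicate 1 and the highest without replicate 4 of the injured libraries. *myf5* lay between -2.07, without that replicate 4, and -0.44, without replicate 3 of the injured libraries. In this comparison 9.91% of all genes tested were called, 5.46% higher and 4.44% lower. In *wwtr1* Crispants, where 11.0% of all genes were called (6.26% higher and 4.74% lower), the values were -0.75 for *myod1* (SE 1.05, edgeR adjusted p = 0.691), 0.16 for *myog* (SE 1.01, edgeR adjusted p = 0.944) and -0.58 for *myf5* (SE 1.16, edgeR adjusted p = 0.794). With a library left out, *myod1* in *wwtr1* Crispants lay between -1.60 (without replicate 1 of the injured libraries) and -0.37 (without replicate 3 of them). The 95% intervals in *wwtr1* Crispants were -2.95 to 1.45 for *myod1*, -1.95 to 2.27 for *myog* and -3.04 to 1.87 for *myf5*. Falls of about 2 on the log2 scale were thus not excluded for any of them, nor rises of about that size for *myog* and *myf5*.

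The second question was whether Crispants differed from WT, or from each other, in the same state. None of the 18 tests passed. In injured *yap1* Crispants against injured WT, *myod1* differed by 1.46 on the log2 scale (95% interval -0.66 to 3.57, edgeR adjusted p = 0.753) and *myog* by 1.31 (95% interval -0.73 to 3.36, edgeR adjusted p = 0.772). With a library left out, *myod1* lay between 0.74 (without replicate 1 of the injured *yap1* Crispants) and 4.15 (without replicate 1 of injured WT) and *myog* between 0.51 and 4.60 without the same libraries, and neither was called. *myf5* had 27 counts over 4 injured *yap1* libraries and 15 counts over 3 injured *wwtr1* libraries, against 0 counts over 3 injured WT libraries. The *myf5* test gave an unadjusted p of 0.00344 in *yap1* Crispants (edgeR adjusted p = 0.380, DESeq2 adjusted p = 0.0548) and of 0.00566 in *wwtr1* Crispants (edgeR adjusted p = 0.981, DESeq2 adjusted p = 0.253). The injured *yap1* and WT groups shared a library at 0, whereas the injured *wwtr1* and WT groups did not overlap for *myf5*. edgeR called 0% of all genes in either of these injured comparisons. At an unadjusted p under 0.05 it passed 1731 genes for *yap1* Crispants and 1047 for *wwtr1* Crispants, and DESeq2 called 164 and 19.

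Without injury, *myod1* was at 0.472 ± 0.158 CPM in *yap1* Crispants, against 1.05 ± 0.838 CPM in WT (log2 fold change -1.13, 95% interval -3.36 to 1.09, edgeR adjusted p = 0.854). Its levels in uninjured *yap1* Crispants, 0.316 to 0.633 CPM, did not overlap those in uninjured *wwtr1* Crispants, 0.817 to 1.61 CPM. The test of that difference did not pass (log2 fold change -1.27, SE 1.06, 95% interval -3.50 to 0.96, adjusted p = 1 by edgeR), and 0.834% of all genes were called in it. For *myog* the values were -0.61 in uninjured *yap1* Crispants against uninjured WT and -0.66 against uninjured *wwtr1* Crispants (95% interval -2.75 to 1.52 for the first and -2.80 to 1.47 for the second). For *myf5* they were 0.21 and 0.52. Uninjured *wwtr1* Crispants differed from uninjured WT by 0.14 for *myod1*, 0.05 for *myog* and -0.31 for *myf5* on the log2 scale, and each 95% interval reached past 2 in both directions. In uninjured *yap1* Crispants against WT 2.24% of all genes were called, and in uninjured *wwtr1* Crispants against WT 0%, where edgeR passed 816 genes at an unadjusted p under 0.05 and DESeq2 called 23. Between the injured Crispants, *yap1* over *wwtr1*, the values were 0.95 for *myod1*, 0.15 for *myog* and 0.26 for *myf5*.

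**Figure D3:**
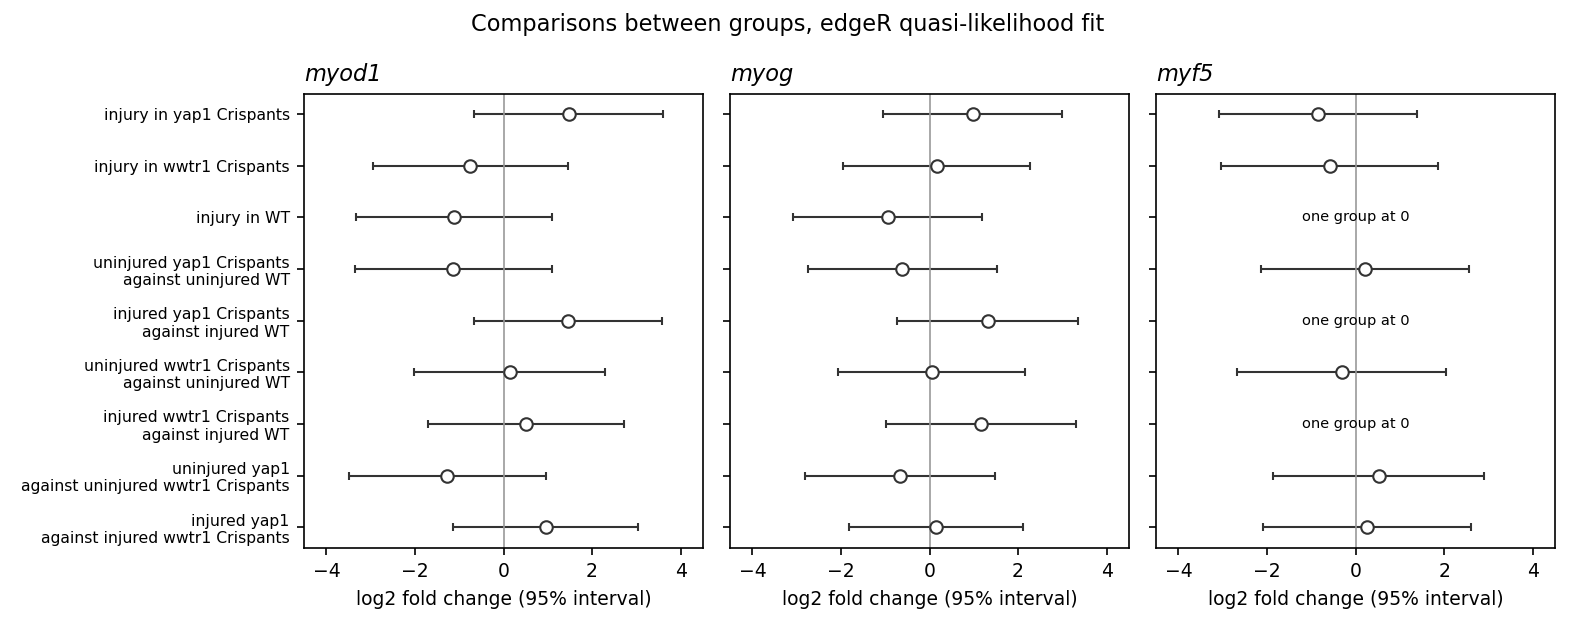
Log2 fold changes of the 3 factors with 95% intervals in the 9 comparisons between groups (edgeR quasi-likelihood fit of all 19 libraries); comparisons in which *myf5* was at 0 throughout injured WT carry no point. All plotted intervals span 0, with *myod1* at 1.47 upon injury in *yap1* Crispants and -1.12 upon injury in WT. The fitted 95% intervals of the *myf5* comparisons without a point left out 0, at values that depend on the prior count. Upon injury in WT, which was called, the interval was -10.3 to -2.87. Against injured WT it was 2.27 to 9.60 for injured *yap1* and 1.91 to 9.44 for injured *wwtr1* Crispants, neither called.

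The third question was whether the response to injury itself differed between genotypes, tested as an interaction. For *myod1* the response in *yap1* Crispants minus that in WT was 2.59 on the log2 scale (SE 1.46, 95% interval -0.48 to 5.65, unadjusted p = 0.0931 and adjusted p = 0.696 by edgeR). For *myog* it was 1.92 (SE 1.40, 95% interval -1.03 to 4.87, edgeR adjusted p = 0.776). With a library left out, the response for *myod1* lay between 1.71 (without replicate 1 of uninjured WT) and 5.28 (without replicate 1 of injured WT) and that for *myog* between 1.06 and 5.21 without the same libraries, and none passed. For *myf5* the same interaction gave an unadjusted p of 0.0127 (edgeR adjusted p = 0.442), and that of *wwtr1* Crispants minus WT gave 0.0112 (edgeR adjusted p = 1.00). The call of *myf5* in WT and its absence in the Crispants were thus not shown to differ. None of the 9 interaction tests of the 3 factors passed. edgeR called 0% of all genes in each of the 3 interactions. In that of *yap1* Crispants and WT, 1711 genes had an unadjusted p under 0.05 by edgeR and DESeq2 called 140.

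By Pearson r, *myod1* and *myog* went with the muscle genes among the injured libraries, *myog* also among the uninjured ones, and for *myf5* no such relation passed the test. Skeletal muscle of the tail runs along the axis, and its filament genes were summed in each library as a measure of its RNA. The sum ranged from 474 to 2325 CPM in injured *yap1* Crispants (median 974), against 615 to 777 CPM in uninjured ones, and from 251 to 1504 CPM in injured *wwtr1* Crispants, against 396 to 1934 CPM in uninjured ones. The within-group SD of log2(CPM + 0.5) was 0.74 for *myod1* and 0.87 for *myog*, beside a median of 0.34 over all genes tested, and 0.28 for *myf5*, whose level lay under the pseudocount. Over the 10 injured libraries, the summed level of the 75 skeletal muscle structure genes went with *myog* (Pearson r = 0.87, Spearman rho = 0.78, permutation test p = 0.00135, adjusted p = 0.00810 over 12 relations) and with *myod1* (r = 0.81, rho = 0.75, permutation test p = 0.00707, adjusted p = 0.0212). These p-values and those below belong to r unless rho is named. For rho the permutation test gave an adjusted p of 0.0414 for *myog* and 0.0539 for *myod1*, so *myod1* did not pass by rank with this list. With the filament genes alone, the adjusted p for rho of *myod1* was 0.0456 by the same test. Without the 2 libraries farthest from the median muscle level, r was 0.90 for *myog* and 0.79 for *myod1*. With *myf5* the summed level gave r = 0.25 (rho = 0.39, permutation test adjusted p = 0.864).

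Among the 9 uninjured libraries the muscle sum went with *myog* (r = 0.87, rho = 0.88, exact permutation test p = 0.00230, adjusted p = 0.00919; r = 0.91 without the 2 farthest libraries). With the filament genes alone r of *myog* was 0.83 (exact permutation test adjusted p = 0.0194), and 0.65 without the 2 farthest libraries. For *myod1* r was 0.65 (rho = 0.45, exact permutation test adjusted p = 0.118), and with the filament genes alone it was 0.64, but 0.0052 without the 2 farthest libraries. For *myf5* r with the full muscle list was -0.01 (exact permutation test adjusted p = 0.983). *myod1* and *myog* went together in injured libraries (r = 0.92, rho = 0.84, permutation test adjusted p = 0.00216, r = 0.84 without the 2 farthest). In uninjured libraries r was 0.79 (exact permutation test adjusted p = 0.0296), but 0.34 without the 2 libraries farthest in *myod1*, so that this relation rested on them. There rho was 0.67 and did not pass (exact permutation test adjusted p = 0.141 for rho). *myf5* went with neither, at r between -0.17 and 0.15. The libraries of the 3 genotypes were pooled in these relations, as groups of 3 or 4 are too small for a value within each. The permutations moved libraries freely between genotypes, so their p-values take in differences between groups and do not measure a relation within a group. Nor did the permutations allow for same-numbered injured libraries that deviated together, so these p-values may be too small.

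When the log2 filament sum entered the fit as a covariate, an alternative chosen after seeing the data, the slope on it was 1.13 for *myog* (SE 0.21, edgeR adjusted p = 0.00676) and 1.00 for *myod1* (SE 0.26, edgeR adjusted p = 0.0532) and *myf5* had a slope of -0.03 (SE 0.43, edgeR adjusted p = 0.981). With the covariate, the log2 fold change upon injury in WT was -0.26 for *myod1* and -0.12 for *myog*, and that in *yap1* Crispants 0.53 for *myod1* and -0.06 for *myog*. The fall of *myf5* in WT remained a DEG with the covariate (edgeR adjusted p = 0.0217). With no count in any injured WT library and a slope near 0, the covariate could hardly alter that call. The filament sum itself differed between groups, and the part of muscle content in the values of the 3 factors was not tested.

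**Figure D4:**
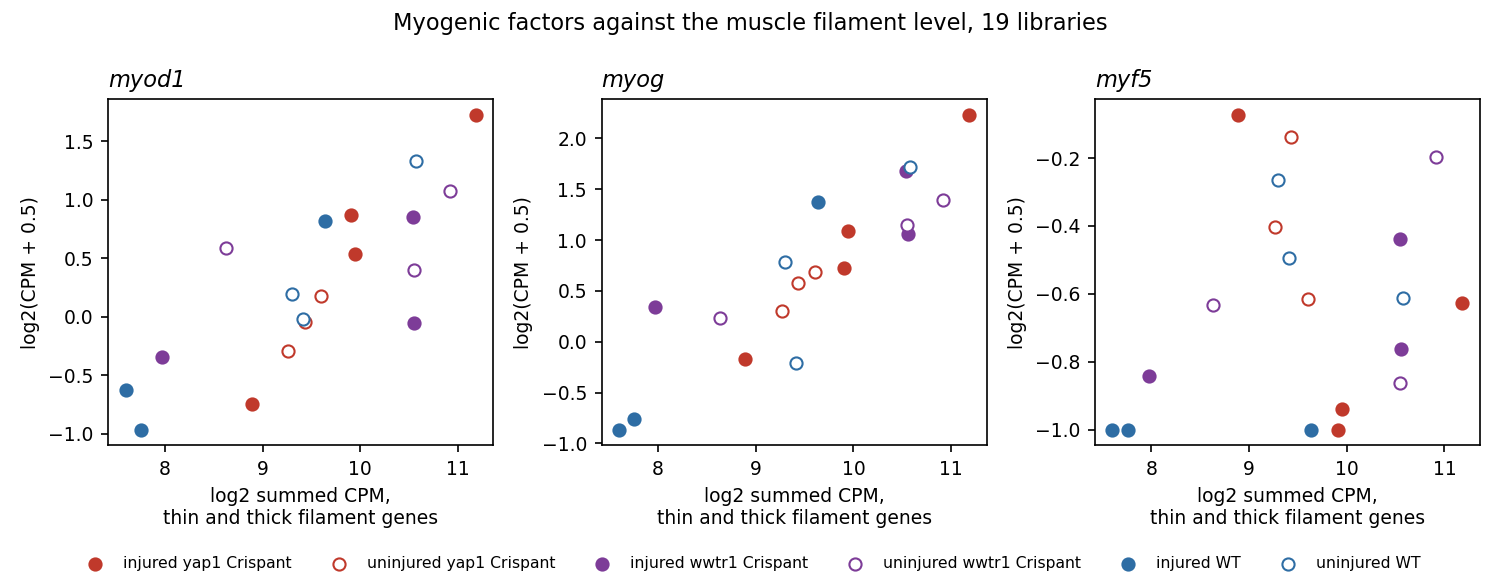
Level of each factor, as log2(CPM + 0.5), against the log2 summed CPM of the 29 thin and thick filament genes in the 19 libraries, coloured by genotype (injured filled, uninjured open). *myod1* and *myog* climb with the filament sum, with r = 0.84 and 0.92 in injured libraries. For *myf5*, whose level lies under the pseudocount in every library, r was 0.26 and rho 0.51, and neither passed the permutation test.

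The genes most like each factor over the 19 libraries were ranked by Pearson r of log2(CPM + 0.5), as a description, and these libraries share their groups and depth. For *myod1* they were the troponin gene *tnnt2c* (r = 0.89), *STAC3* of excitation-contraction coupling (0.88), *MYOG* itself (0.88), the slow myosin heavy chain *smyhc1* (0.88) and the muscle ubiquitin ligase *trim63a* (0.87). For *myog* they were *smyhc1* (0.94), a myosin heavy chain that the symbol table names *MYH6* (ENSDARG00000079564, 0.94), *CHRNA1* of the acetylcholine receptor of muscle (0.93), *COL6A2* (0.93) and *si:ch211-86h15.3* (0.92). For *myf5* they were *si:dkey-93m18.4* and *nudt4a* (0.83 each), followed by *si:ch73-112l6.6*, *si:zfos-943e10.1* and *apoda.1* (0.82 each). Of 23 filament genes past the filter, 12 were among the 200 genes most like *myod1*, 13 among those most like *myog* and 0 among those most like *myf5*. These are the top 200 of 20978 genes ranked, so the 0 for *myf5* is near the share over all genes. The median r of the filament genes was 0.73 with *myod1*, 0.80 with *myog* and 0.06 with *myf5*, whose level lay under the pseudocount in every library. Over all genes ranked it was 0.0047, 0.0070 and 0.00045.

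Around the 3 factors stands a network of muscle precursor genes, cofactors and inhibitors, of which 44 gene IDs were tested, the 3 factors included. Upon injury, 3 rose and 4 fell in *yap1* Crispants, 2 rose and 4 fell in *wwtr1* Crispants, and 4 rose and 10 fell in WT, beside the 9.91%, 11.0% and 16.0% of all genes called. The median log2 fold change of the list was -0.11 in *yap1* Crispants, -0.44 in *wwtr1* Crispants and -0.79 in WT, against 0.0084, -0.0014 and -0.056 over all genes. Several of these genes, such as *twist1a*, *six4a*, *sox6* and *met*, are known from tissues other than muscle too. The count in WT was 9 without replicate 3 of injured WT and 16 without replicate 1. That in *yap1* Crispants was 3 without replicate 1 of the uninjured and 4 without replicate 4 of the injured libraries, and that in *wwtr1* Crispants 3 without replicate 3 of the injured libraries. The share of all genes called with a library left out was not computed, so these counts are a description. In the 9 other comparisons no gene of the list was called by edgeR. Of all genes, it called 2.24% in uninjured *yap1* Crispants against WT and 0.834% in uninjured *yap1* against *wwtr1* Crispants. In the rest it called 0%.

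Among the precursor genes and cofactors, the homeobox gene *six4a* fell in all 3 genotypes, to 5.21 ± 0.391 CPM in injured WT, against 18.4 ± 2.83 CPM in uninjured WT (SD, n = 3 each, log2 fold change -1.82, edgeR adjusted p = 0.00403). In WT, *PAX7* (ENSDARG00000070818), a marker of muscle stem cells that neural crest cells also express, fell to 0.305 ± 0.191 CPM in injured fish, against 2.74 ± 3.37 CPM in uninjured fish. Replicate 1 of uninjured WT held 6.63 CPM of it, against 0.648 and 0.957 CPM in the other uninjured WT libraries. The other *PAX7* ID tested (ENSDARG00000100398) was not called in WT, at 0.352 CPM in injured and 0.632 CPM in uninjured fish. *tcf12*, an E protein that dimerises with the myogenic factors, fell by 1.51 on the log2 scale in WT. *msgn1*, a factor of the presomitic mesoderm, rose to 1.75 ± 0.135 CPM in injured WT, against 0.159 ± 0.109 CPM in uninjured WT, and to 3.25 ± 1.76 CPM in injured *yap1* Crispants (n = 4), against 0.256 ± 0.0954 CPM in uninjured ones. *met*, the receptor of hepatocyte growth factor, rose in *wwtr1* Crispants (log2 fold change 1.03) and in WT (1.01), and *MEF2C* (ENSDARG00000009418), a cofactor of the myogenic factors, rose in *yap1* Crispants (1.31). The other *MEF2C* ID (ENSDARG00000029764) was not called there, at 2.22 CPM in injured and 1.78 CPM in uninjured *yap1* Crispants.

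Among the inhibitors, *mstnb*, a myostatin that restrains muscle growth, fell in every genotype. It was at 0 in all 4 injured *yap1* libraries, against 0.587 ± 0.483 CPM in uninjured ones. Replicate 3 of the uninjured *yap1* Crispants held 0.0293 CPM of it, under the floor of 3 counts, against 0.882 and 0.849 CPM in the others. *mstnb* averaged 0.0127 CPM in injured *wwtr1* Crispants, against 0.965 ± 0.189 CPM in uninjured ones, and 0.0278 CPM in injured WT, against 1.48 ± 1.29 CPM in uninjured WT. *twist1a*, a bHLH factor that opposes myogenic differentiation in mammals, also fell in all 3 genotypes, by 1.12 in *yap1* Crispants, 1.02 in *wwtr1* Crispants and 1.46 in WT on the log2 scale. *twist2* and *id2b*, whose product sequesters E proteins, fell in WT, by 2.81 and 1.51. Of the genes of myoblast adhesion and fibre type, *jam2a*, an adhesion molecule of fusing myoblasts in zebrafish, rose in all 3 genotypes, to 31.6 ± 6.03 CPM in injured WT, against 2.37 ± 1.34 CPM in uninjured WT (n = 3 each, log2 fold change 3.74, edgeR adjusted p = 0.000205). No other gene listed for fusion or adhesion of myoblasts was called upon injury. In WT the means of *mymk*, *mymx*, *cdh15* and the *JAM3* IDs were lower after injury, and that of *kirrel3l* was higher. *sox6*, which represses slow fibre genes in zebrafish fast muscle, fell in all 3 genotypes, by 1.03 to 1.13 on the log2 scale. *PRDM1* (ENSDARG00000002445), a regulator of slow fibres that epidermis also uses, rose in WT (log2 fold change 1.33). Whether calls made in 1 genotype alone differed from the others was tested by the 3 interactions. edgeR called none of the 44 in them, but also 0% of all genes, so this count is not particular to the list.

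**Figure D5:**
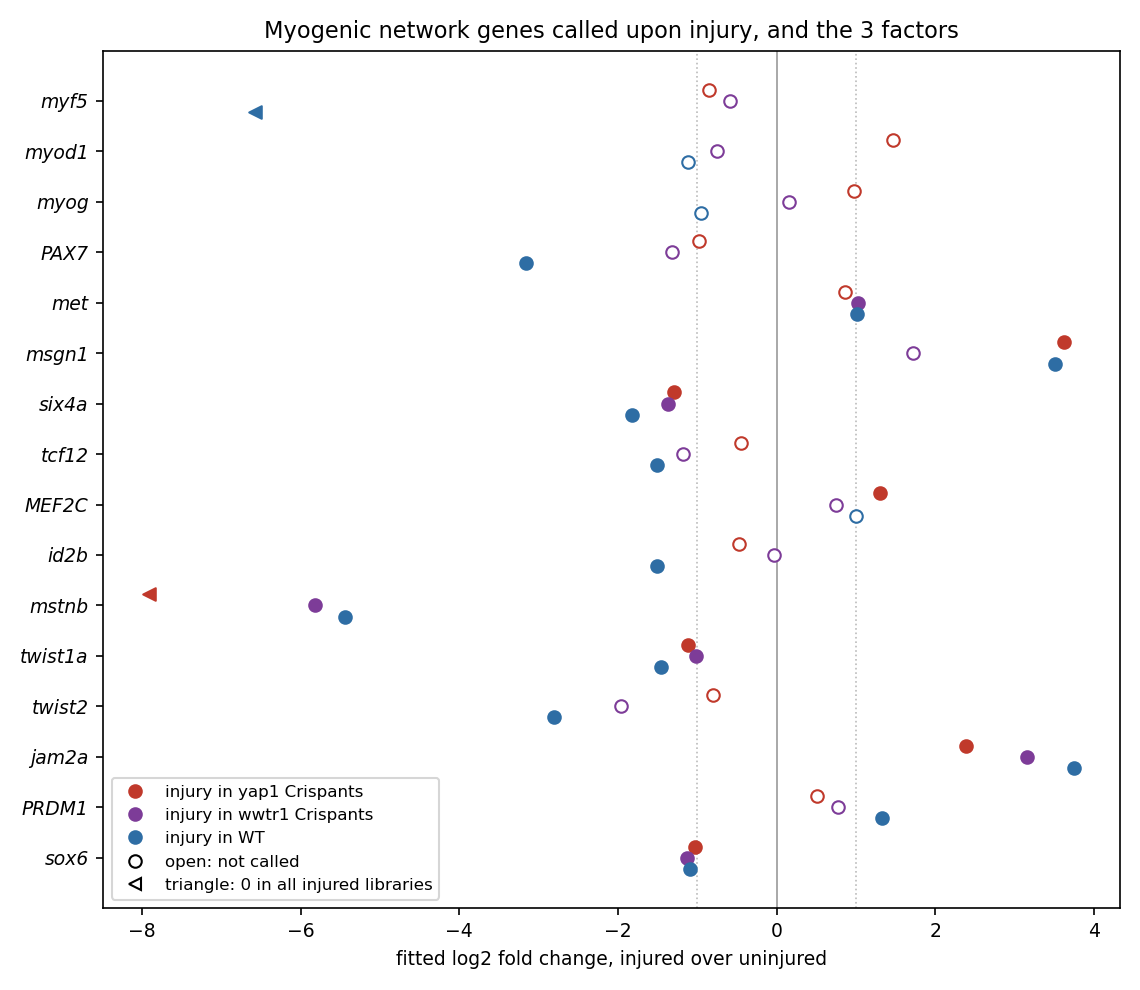
Fitted log2 fold change of injured over uninjured fish, by genotype, for myogenic network genes called in at least 1 genotype and for *myod1* and *myog*; filled symbols were called, and dotted lines mark 1 and -1. *mstnb*, *six4a*, *twist1a* and *sox6* lie left of -1 and *jam2a* right of 1 in all 3 genotypes; triangles mark values with 0 in all injured libraries, whose position depends on the prior count.

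Of the differentiated muscle genes, 69 were tested. Upon injury, 2 rose and none fell in *yap1* Crispants, 1 rose and none fell in *wwtr1* Crispants, and 1 rose and 2 fell in WT, beside the 9.91%, 11.0% and 16.0% of all genes called. The count in WT was 13 with the replicate block (1 higher, 12 lower) and 7 with DESeq2, and DESeq2 called 6 in *yap1* Crispants. Of all genes, the block called 3763 in WT, and DESeq2 called 3988 in WT and 2569 in *yap1* Crispants. The main fit called 3363 in WT and 2078 in *yap1* Crispants. The titin cap gene *tcap* rose in every genotype, to 8.49 ± 3.91 CPM in injured *yap1* Crispants (n = 4), against 1.22 ± 0.925 CPM in uninjured ones, and to 4.92 ± 3.07 CPM in injured WT, against 1.02 ± 0.361 CPM in uninjured WT. The other calls were the fast myosin heavy chain *myhz1.3*, which rose in *yap1* Crispants, and the calcium handling genes *atp2a1l* and *RYR1* (ENSDARG00000023797), which fell in WT. *myhz1.3* was at 0.437 ± 0.489 CPM in injured *yap1* Crispants, against 0.0194 CPM in uninjured ones, where every library lay under the floor of 3 counts. Replicate 1 of the injured *yap1* Crispants held 1.16 CPM of it, against 0.0966 to 0.256 CPM in the others. The median log2 fold change of the list was 0.72 in *yap1* Crispants (61 of 69 positive), -0.23 in *wwtr1* Crispants (23 of 69) and -1.28 in WT (7 of 69). Over all genes it was 0.0084, -0.0014 and -0.056. The values of *myod1*, at 1.47, -0.75 and -1.12, and of *myog*, at 0.97, 0.16 and -0.95, stood in the same order. None of these factor values was called, and no interaction of either factor passed. With a library left out, *myod1* ranged from -1.60 to -0.37 in *wwtr1* Crispants and from -3.81 to -0.25 in WT, so this order was not fixed. The list includes genes such as *gapdh* that many tissues express. Without replicate 1 of injured WT 14 of the list were called in WT, all of them lower. Without replicate 3 of injured WT or replicate 1 of uninjured WT 1 was called. In *yap1* Crispants 1 was called without replicate 1, 2 or 3 of the uninjured libraries or replicate 1 of the injured ones. For these counts, too, the share of all genes called in the same fit was not computed.

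Other tissues shifted with injury beside these values. The notochord markers summed to 877 to 2726 CPM in injured *yap1* Crispants, against 4804 to 6625 CPM in uninjured ones, and to 825 to 2180 CPM in injured *wwtr1* Crispants, against 4059 to 6757 CPM in uninjured ones. The leucocyte markers were at 140 to 316, 188 to 207 and 179 to 249 CPM in injured *yap1* Crispants, *wwtr1* Crispants and WT, against 21.0 to 69.4, 18.6 to 23.6 and 18.8 to 27.9 CPM in the uninjured groups of the same genotypes. Epidermis and fin fold markers summed to 77843 to 126043 CPM in injured WT, against 190433 to 216934 CPM in uninjured WT. The spinal cord and nerve markers (7 IDs) summed to 8.99 to 19.6 CPM in injured WT, against 46.4 to 58.9 CPM in uninjured WT, where *mbpa* of myelin and *gfap* of glia fell by 2.495 and 1.82 on the log2 scale. The same sum was 19.7 to 45.3 CPM in injured *yap1* Crispants, against 27.6 to 51.9 CPM in uninjured ones, and 12.0 to 34.3 CPM in injured *wwtr1* Crispants, against 34.2 to 42.7 CPM in uninjured ones. The part of these shifts in the levels of *myf5* and of network genes such as *PAX7* was not tested.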

How the data were processed

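The authors ran Trim Galore on the reads, mapped these to GRCz11 (BWA-MEM, SAMtools) and counted them per Ensembl gene with HTSeq; versions and the strand setting are not given in the sources used here. The deposited values are raw counts of 19 libraries made with a low-input kit. From them, CPM were computed with TMM-scaled library sizes, and groups were compared with edgeR 4.0.16 in R 4.3.3 (filterByExpr, 1 quasi-likelihood fit of the 6 groups, prior count 0.125); DESeq2 1.42.0, the tool of the study, was an alternative. The fits were tested on simulated data, with counts drawn from the real means. Correlations used log2(CPM + 0.5), with permutation tests by Python 3.11.15 (100000 resamples for 10 libraries, exact for 9).

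The 3 genes and all gene lists were chosen with earlier results of these data known. The lists were matched to gene IDs through a symbol table that covers 29201 of 32520 IDs, often with the human symbol. Genes of the myogenic network (46 IDs), the 5 genes most like each factor, the 4 most abundant of each other list and genes called beside a called factor were open to naming. *myl7*, *nppa*, *TNNT2*, *gapdh*, *mbpa*, *gfap*, *tcap*, *myhz1.3*, *atp2a1l* and *RYR1* were named after their values were seen. A called gene of the network is counted but not reported here by name. No pair of libraries within a group was a duplicate (21 pairs), and pairs between groups were not checked. The labels call replicates biological without naming their source, so p-values measure the spread between these pools. The 95% intervals come from the same fit and include that spread. Same-numbered libraries deviated together in all 3 pairs for injured *yap1* and *wwtr1* Crispants (correlations 0.144 to 0.382), which may be paired. Alternatives changed the normalization, the filter, the samples fitted, the replicate block, the tool, the threshold, the prior count and each library; the filament covariate, the filament-only correlations and the list counts with a library left out were added after seeing the data. No sequences are shown, as no genome of this build was used here.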

Additional observations from a re-analysis of the deposited data

How the results depend on the processing

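Of 36 tests of the 3 factors, every call and direction was kept with RLE size factors, no low-count filter and DESeq2. The same held with the adjusted p alone and a prior count of 2, but these 2 settings could alter little. The first reuses the main fit, so directions were fixed and calls could only be added. The second alters the fold changes and not the p-values. Fitted on the compared groups alone, 30 tests kept their direction and none gained a call. *myf5* did not pass the filter in the other 6. Injury in WT was among them, so this setting did not test the only call. A minimum of 10 counts in every library removed all 3 genes. With the replicate block, *myog* upon injury in *wwtr1* Crispants turned to -0.35 and *myf5* in injured *yap1* against *wwtr1* Crispants to -1.05, both uncalled, and no other call of a factor changed. Same-numbered libraries were not taken as pairs in the main fit, nor were those of the injured *yap1* and *wwtr1* Crispants given in the methods. However, 5 of 6 libraries correlated best with their own number for injury in WT, and 5 of 6 for injured *yap1* Crispants against injured WT. In the second comparison the correlations were 0.0796 to 0.531, the highest for replicate 1. The labels do not say whether same-numbered injured libraries share a source. The block moved the muscle structure genes called upon injury in WT to 13 (1 higher, 12 lower), and all genes called there to 3763, against 3363. DESeq2 called 7 of these muscle genes upon injury in WT, 6 upon injury in *yap1* Crispants and 2 in the interaction of *yap1* Crispants and WT. Of all genes it called 3988, 2569 and 140 in these comparisons.

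With the filament covariate, 7 uncalled values changed sign, namely *myog* upon injury in *yap1* Crispants (-0.062), in uninjured *wwtr1* Crispants against WT (-0.14), in uninjured (0.11) and injured (-0.59) *yap1* against *wwtr1* Crispants and in the response of *yap1* minus *wwtr1* Crispants (-0.69), and *myod1* in injured *wwtr1* Crispants against WT (-0.19) and in the response of *wwtr1* Crispants minus WT (-0.51). With log2(CPM + 0.1), r of *myf5* with *myod1* in injured libraries was 0.029, and r of *myog* with *myod1* in uninjured libraries 0.75 (exact permutation test adjusted p = 0.0501).

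Leaving out each library gave 285 values, of which 29 uncalled ones changed sign and 2 gained a call. Upon injury in WT *myod1* ranged from -3.81 to -0.25 and *myog* from -4.24 to -0.081. Upon injury in *wwtr1* Crispants *myog* ranged from -0.36 to 0.51 and *myf5* from -1.34 to 0.32. In uninjured *yap1* Crispants against WT the range was -1.08 to 0.25 for *myog* and -0.19 to 0.56 for *myf5*. In uninjured *wwtr1* Crispants against WT it was -0.21 to 1.01 for *myod1*, -0.41 to 0.92 for *myog* and -1.21 to 0.13 for *myf5*, and in injured ones -0.34 to 3.20 for *myod1*. In injured *yap1* against *wwtr1* Crispants it was -0.65 to 0.67 for *myog* and -0.96 to 1.02 for *myf5*. The response of *wwtr1* Crispants minus WT ranged from -0.50 to 3.06 for *myod1*, and that of *yap1* minus *wwtr1* Crispants from -1.48 to 0.49 for *myf5*. Network genes called upon injury numbered 9 to 16 in WT, 3 to 8 in *yap1* Crispants and 3 to 8 in *wwtr1* Crispants, and muscle structure genes 1 to 14 in WT and 1 to 3 in *yap1* Crispants. The share of all genes called in these fits was not computed. The causes of these changes were not tested. *myf5* had no count in 4 libraries, and the floor of 3 counts lay between 0.0367 and 0.0966 CPM.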

Other observations

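The level of *myod1* and *myog* per 1000 CPM of muscle filament RNA was compared with their plain level, and the libraries named here were picked after their values were seen. The within-group SD of log2(CPM + 0.5) minus the log2 filament sum was 0.50 for *myog*, against 0.87 for log2(CPM + 0.5) alone, and 0.66 for *myod1*, against 0.74. For *myf5*, whose level lay under the pseudocount, it was 1.07, against 0.28. The ratios that follow hold no pseudocount, so these SDs are not their spread. Replicate 1 of uninjured *wwtr1* Crispants held 2.53 CPM of *myod1* per 1000 CPM of filament RNA, against 0.545 and 0.833 in the other libraries of its group, while its *myog* ratio of 1.71 stood beside 1.14 and 1.102. Replicate 2 of injured WT held 0.0610 CPM of *myod1* per 1000, from 1 count. For *myog* the highest of the 19 ratios was 3.05 in replicate 3 of injured *wwtr1* Crispants, against 1.81 and 1.05 in the other libraries of its group. Injured WT held 2.63, 0.427 and 0.257.

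The gene *wwtr1* itself was higher in uninjured *yap1* Crispants, at 2.57 to 7.46 CPM, against 0.619 to 1.19 CPM in uninjured WT (log2 fold change 2.33, edgeR adjusted p = 0.0433). In injured *yap1* Crispants it was at 0.973 to 4.47 CPM, against 0.523 to 1.16 CPM in injured WT, and did not pass (log2 fold change 1.55, edgeR adjusted p = 0.460).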
